A study of Mus musculus with 6 samples.

Results

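Fatty acids are burned in the heart by a chain of enzymes that first ties them to coenzyme A and then shortens them from the carboxyl end. The genes of that chain were read here in hearts of young mice given ETX or its vehicle. The set was a chosen list of 34 enzymes of fatty acid activation and mitochondrial and peroxisomal beta-oxidation. It included acyl-CoA thioesterases, the pantetheinase Vnn1 and the malonyl-CoA enzymes Acacb and Mlycd. Of the 34, 32 lay on an array feature (a transcript cluster) annotated to 1 gene, out of 19938 such genes. All 32 were among the 14953 genes bright enough to be tested. Acsl3 lay only on a cluster shared with another gene and Acsl1 was not found by its symbol, so neither is reported.

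Hearts came from C57BL/6J mice at postnatal day 14. The 3 ETX hearts (replicates 6, 7 and 10) were taken after 1 week of ETX, and the 3 PBS hearts (replicates 3, 9 and 12) after 1 week of phosphate-buffered saline. The labels do not spell out ETX and give neither dose nor sex. Total RNA of each heart, described as a biological replicate, was hybridised to 1 Affymetrix whole-transcript array, and the number of arrays limits the precision. Values are log2 signals as the authors normalized them. A difference of 1 would be a doubling, and levels of different genes cannot be set against each other because each is read by its own probes.

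In beta-oxidation an acyl-CoA synthetase makes the acyl-CoA, a chain-length-specific acyl-CoA dehydrogenase introduces a double bond, and a hydratase, a hydroxyacyl-CoA dehydrogenase and a thiolase finish each round. Electrons of the first step pass through the electron transfer flavoprotein to the respiratory chain. Unsaturated chains need extra isomerases and reductases, and very long or branched chains are shortened in peroxisomes first. Many of these genes are targets of the nuclear receptor PPAR-alpha, and the heart of a newborn mouse raises them as it turns from glucose to fatty acids.

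The promoters of Ech1 and Decr2 are shown because these were the called genes and they moved in opposite directions, and that of Hadha because it is shared with Hadhb. The 250 bases before each gene's start are from RefSeq (GRCm38.p6), read 5′ to 3′ along the gene. Capitals mark the GC box GGGCGG, the core of the YY1 motif ATGGCG and the nuclear receptor half-site AGGTCA, on either strand. The Ech1 stretch is chr7:28825088-28825337 on the plus strand, the Decr2 stretch chr17:26090165-26090414 on the minus strand and the Hadha stretch chr5:30154981-30155230 on the minus strand.
Ech1: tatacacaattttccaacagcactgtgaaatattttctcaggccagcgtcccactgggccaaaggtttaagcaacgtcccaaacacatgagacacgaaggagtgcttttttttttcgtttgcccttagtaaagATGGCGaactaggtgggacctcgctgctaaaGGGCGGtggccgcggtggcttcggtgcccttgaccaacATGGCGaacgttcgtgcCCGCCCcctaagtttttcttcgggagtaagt
Decr2: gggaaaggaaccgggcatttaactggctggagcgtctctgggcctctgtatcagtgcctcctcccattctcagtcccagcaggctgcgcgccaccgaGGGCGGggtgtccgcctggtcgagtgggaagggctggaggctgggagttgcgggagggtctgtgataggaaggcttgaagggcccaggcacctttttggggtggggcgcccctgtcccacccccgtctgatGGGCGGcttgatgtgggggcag
Hadha: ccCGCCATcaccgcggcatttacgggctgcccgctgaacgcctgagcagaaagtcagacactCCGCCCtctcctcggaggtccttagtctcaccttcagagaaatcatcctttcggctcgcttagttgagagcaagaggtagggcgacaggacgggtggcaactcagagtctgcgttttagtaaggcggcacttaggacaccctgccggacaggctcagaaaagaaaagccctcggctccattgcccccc
The Ech1 stretch held 4 matches, the Decr2 stretch 2, both GC boxes, and the Hadha stretch 2. The starts of Hadha and Hadhb face away from each other with 272 bases between them.

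Promoters of 28 members were in the RefSeq table, 31 promoters in all, with 3 for Acsl6 and 2 for Acsl1. Any of these letters in a window is a description, not a binding site. The half-site AGGTCA stood before 4 of the 28 (Acadm, Acadvl, Acsl6 and Echs1). That was 4 of the 31 promoters, against 14% of all 32851 promoters in windows of the same length. Of these genes, Acadvl and Acsl6 overlapped between ETX and PBS, and Acadm and Echs1 did not. The other members without overlap (Acads, Hadh, Eci2, Acsl5, Ech1, Decr2 and Ehhadh) had no half-site in the window. For Acadm and Echs1, a stretch of 40 bases that holds the half-site, in capitals, follows. The stretches are chr3:153944854-153944893 and chr7:140116482-140116521, both on the minus strand.
Acadm: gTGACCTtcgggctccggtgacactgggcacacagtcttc
Echs1: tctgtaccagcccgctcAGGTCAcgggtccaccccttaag
The repeat AGGTCANAGGTCA, the form PPAR-alpha binds best, was in 0 of the 28 and in 0.0335% of all promoters. TCAAGGTCA, the longer site of the oestrogen-related receptors, stood before Acsl6, in 1 of the 31 promoters, against 0.387% of all promoters. ATGGCG stood before 4 of the 28, Hadha, Hadhb, Ech1 and the unmeasured Acsl1. That was 4 of the 31 promoters, against 5.73% of all promoters. GGGCGG stood before 18 of the 28, in 20 of the 31 promoters, against 32.7% of all promoters.

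Across the pathway most genes differed little between ETX and PBS hearts. Ech1, a dienoyl-CoA isomerase, fell and Decr2, the peroxisomal dienoyl-CoA reductase, rose. Both act on unsaturated chains, and no other member passed the test (limma, two-sided, Benjamini-Hochberg adjusted p of 0.05 over the 14953 genes). Thus 1 of 32 was called lower, against 2.43% of all genes tested, and 1 of 32 higher, against 1.14%, or 2 of 32 in either direction, against 3.56%. The differences of 16 members lay below 0 and of 16 above, with a median of -0.00019, against 51.6% below 0 and a median of -0.0064 over all genes tested. At an unadjusted p under 0.05, 5 members were lower (13.1% of all genes) and 1 was higher (8.86%). All 3 ETX hearts lay below all 3 PBS hearts for 7 members (16.1% of all genes) and above them for 2 (11.6%). With 1 heart left out, the difference of 25 members moved by over 1.5 times or turned, of which 9 changed sign. The 7 that did neither were Ech1, Decr2, Echs1, Acadm, Acsl5, Eci2 and Hadha. This was not counted over all genes, and a difference near 0 moves by such a ratio easily. It is therefore no measure of stability particular to these members. The shares of called and non-overlapping members are thus near those of all genes.

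**Figure D1:**
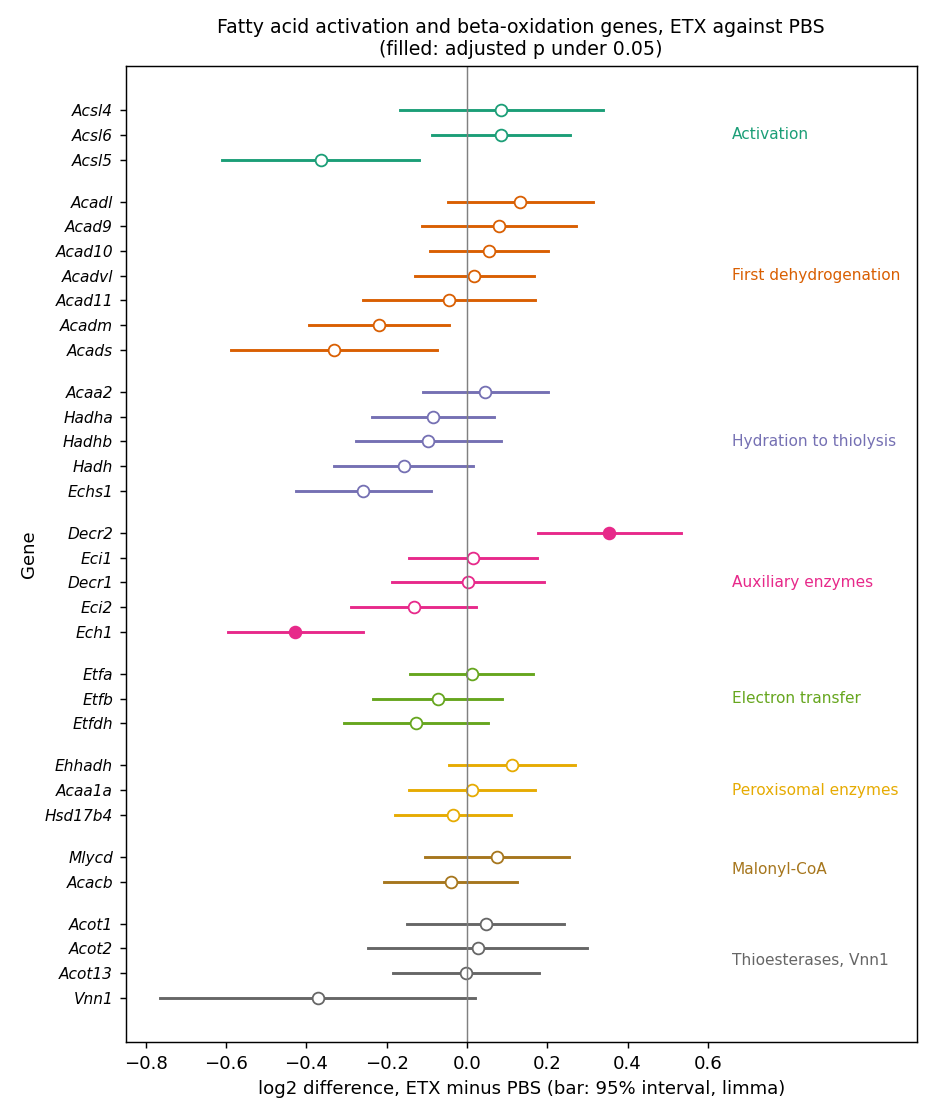
The log2 difference, ETX minus PBS, of the 32 measured genes with its 95% interval from limma, grouped by enzyme step and coloured by it. Ech1 and Decr2, the filled points, have the lowest and the highest difference, and 26 of the 32 intervals include 0. Vnn1 and Acsl6 are drawn and counted too, though their dim signals give no reliable difference.

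Before the single genes, the hearts themselves need a word. Lung markers were high in PBS replicates 3 and 9: the summed linear signal of 9 markers was 125 to 132 in ETX hearts and 119 to 2251 in PBS hearts. Atrial markers (7 of 7 measured) summed to 4140 to 7354 in ETX and 888 to 5944 in PBS, lowest in PBS replicates 9 and 12. Nppa was the brightest of them in every heart and weighed most in this sum. The next brightest, Myl4 and Myl7, placed ETX replicate 10 near PBS replicates 9 and 12. Myl4 was at 9.98, 9.97 and 7.57 in ETX replicates 6, 7 and 10, against 9.96, 7.32 and 7.74 in PBS replicates 3, 9 and 12. In the same order Myl7 was at 9.03, 8.84 and 6.24, against 8.46, 5.89 and 6.22. Bmp10 was the 1 atrial marker with a difference below 0, at 7.71 in PBS replicate 3 against at most 2.94 in the other hearts. Hepatocyte markers (7 of 8) summed to 238 to 992 in ETX and 164 to 563 in PBS, where Alb was highest in ETX replicate 6 at 9.10. Adipocyte markers (7 of 8) summed to 97.8 to 145 in ETX and 87.1 to 101 in PBS, with Adipoq at or below 3.61 in all hearts and Ucp1 at 5.72 in ETX replicate 6 against at most 3.77 elsewhere. The 8 cardiomyocyte markers were all bright, and their sum was 42520 to 45220 in ETX and 45750 to 46120 in PBS; all 8 differences lay below 0, with a median of -0.11 and 0 called in limma (1 at an unadjusted p under 0.05). Macrophage markers (9 of 9) summed to 944 to 1014 in ETX and 1271 to 1422 in PBS, with 5 of 9 called lower in limma. Endothelial markers (8 of 8) summed to 3704 to 4292 in ETX and 4751 to 4920 in PBS, with 3 of 8 called lower and 6 at an unadjusted p under 0.05. The part of macrophage, endothelial, cardiomyocyte and adipocyte content in the results that follow was not tested. In a whole heart, fewer cells of a type and less RNA per cell cannot be told apart.

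Activation was covered by 3 of the 5 long-chain acyl-CoA synthetases. Acsl5, an isoform of mitochondria and endoplasmic reticulum, was at 6.06, 6.06 and 6.24 in ETX replicates 6, 7 and 10, against 6.31, 6.69 and 6.46 in PBS replicates 3, 9 and 12. Every ETX heart lay below every PBS heart, and PBS replicate 9 stood highest. The difference of -0.36 (95% interval -0.61 to -0.12) did not pass (limma adjusted p = 0.102), and without PBS replicate 9 it was -0.26. Acsl4, which favours arachidonate, differed by 0.086 (-0.17 to 0.34), with overlapping groups. Acsl6, best known from brain, lay near the low end of the arrays at 3.58 ± 0.10 in ETX and 3.49 ± 0.05 in PBS (SD, n = 3 each), so no fold is given.

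Of the 7 acyl-CoA dehydrogenases, both with the shorter substrates stood lower in ETX and none passed. Acads, for short chains, was at 7.87, 7.67 and 7.74 in the ETX hearts, against 8.33, 7.99 and 7.95 in the PBS hearts. The groups did not overlap, and PBS replicate 3 lay well above the other two. The difference was -0.33 (-0.59 to -0.08, limma adjusted p = 0.139), but -0.21 without PBS replicate 3 and -0.19 without PBS replicates 3 and 9, the hearts with lung transcripts. That last fit keeps 1 PBS heart, assumed to vary like the others. Acadm, the medium-chain enzyme, was at 11.29, 11.19 and 11.38 in ETX hearts, against 11.59, 11.48 and 11.45 in PBS hearts. Here too the groups were apart, by a narrow margin at their nearest, and the difference was -0.22 (-0.39 to -0.04, limma adjusted p = 0.146).

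The enzymes for longer chains did not stand lower. Acadl, the long-chain dehydrogenase, was at 11.22, 11.20 and 11.37 in ETX hearts, against 11.06, 11.09 and 11.23 in PBS hearts. ETX replicates 6 and 7 lay just under PBS replicate 12, and the difference was 0.13 (-0.05 to 0.31, limma adjusted p = 0.369). It was 0.081 without ETX replicate 10, 0.029 without PBS replicates 3 and 9 and 0.051 with the lung score as a covariate. Acadvl, the very-long-chain enzyme of the inner membrane, was at 10.46, 10.35 and 10.42 in ETX hearts, against 10.43, 10.38 and 10.36 in PBS hearts. These 6 values lay close together, and the interval of the difference ran from -0.13 to 0.17. Acad9, which also helps assemble complex I, differed by 0.079, Acad10 by 0.054 and the peroxisomal Acad11 by -0.045, all with overlapping groups. Whether the shorter-chain enzymes differ from the longer-chain ones in their response was not tested.

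In the steps from hydration to thiolysis 4 of 5 genes lay below 0. Echs1, the short-chain enoyl-CoA hydratase, was at 9.21, 9.02 and 9.07 in ETX hearts, against 9.35, 9.31 and 9.40 in PBS hearts. All ETX hearts were lower, and its difference of -0.26 (-0.43 to -0.09) missed the threshold (limma adjusted p = 0.0948) but passed where the variance prior followed intensity (adjusted p = 0.0477, and 0.0433 with a robust prior). Over all alternatives its adjusted p ran from 0.0433 to 0.263. Hadh, the hydroxyacyl-CoA dehydrogenase of shorter chains, was at 11.19, 11.02 and 11.20 in ETX hearts, against 11.31, 11.23 and 11.34 in PBS hearts. The gap between the groups was narrow, and the interval of its difference reached above 0 (-0.33 to 0.015, limma adjusted p = 0.269). Its difference was -0.16, and -0.10 without ETX replicate 7.

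Hadha and Hadhb, the subunits of the mitochondrial trifunctional protein whose starts lie back to back in the sequence above, shared their lowest hearts. Hadha was at 11.80, 11.76 and 11.89 in ETX hearts, against 11.91, 11.87 and 11.93 in PBS hearts. Hadhb was at 11.25, 11.20 and 11.43 in ETX hearts, against 11.35, 11.39 and 11.43 in PBS hearts. For both, ETX replicates 6 and 7 were lowest, while ETX replicate 10 reached the PBS hearts, and the differences were -0.085 (-0.24 to 0.066) and -0.097 (-0.28 to 0.084). Hadhb was the member with more than 1 cluster, and its dimmer one differed by -0.11. Acaa2, the mitochondrial thiolase, differed by 0.046 (-0.11 to 0.20).

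The auxiliary enzymes of unsaturated chains held both called genes. Ech1, found in mitochondria and peroxisomes, was at 11.10, 10.92 and 11.00 in ETX replicates 6, 7 and 10, against 11.50, 11.40 and 11.41 in PBS replicates 3, 9 and 12. Both groups were tight and stood clearly apart. Ech1 averaged 11.01 ± 0.09 in ETX hearts and 11.43 ± 0.06 in PBS hearts (SD, n = 3 each), 1.35-fold lower in ETX (difference -0.43, 95% interval -0.60 to -0.26, limma adjusted p = 0.0277). It was -0.40 without PBS replicates 3 and 9, -0.43 after adding a covariate for lung markers and -0.44 with one for atrial or hepatocyte markers. It did not pass in these fits, and with 1 heart left out it passed without ETX replicate 6 and lost the call without any other (adjusted p up to 0.103).

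Decr2 was at 6.83, 6.90 and 6.98 in ETX hearts, against 6.64, 6.44 and 6.55 in PBS hearts. Again no ETX heart lay within the PBS range, now above it. Decr2 averaged 6.90 ± 0.07 in ETX hearts and 6.55 ± 0.10 in PBS hearts (SD, n = 3 each), 1.28-fold higher in ETX (difference 0.35, 0.18 to 0.53, limma adjusted p = 0.0496). This p lies at the threshold: the call was lost in all 6 fits without 1 heart (adjusted p of 0.0777 to 0.15), without the filter on dim genes (0.0638) and with arrays centred on their median (0.0673), while the difference stayed between 0.30 and 0.40 in every alternative. Decr1, the mitochondrial reductase of the same step, was at 10.71, 10.68 and 10.89 in ETX hearts, against 10.71, 10.71 and 10.86 in PBS hearts. Its groups lay on top of each other, with a difference of 0.0019 (-0.19 to 0.19). Eci1, the main mitochondrial enoyl-CoA isomerase, differed by 0.014. Eci2, its relative in peroxisomes and mitochondria, was at 9.24, 9.37 and 9.37 in ETX hearts, against 9.42, 9.50 and 9.46 in PBS hearts. Its ETX hearts were all lower without passing (-0.13, -0.29 to 0.023, limma adjusted p = 0.298).

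**Figure D2:**
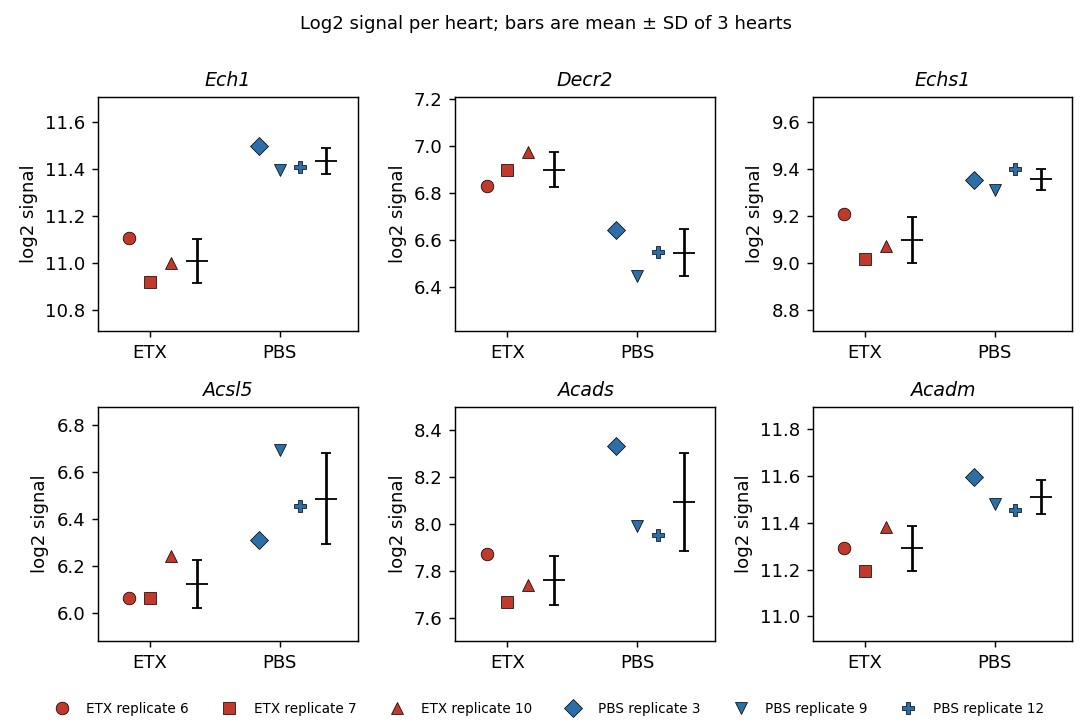
Log2 signal in each heart for the 6 genes with an unadjusted limma p under 0.05, ETX left and PBS right; each symbol is 1 heart, bars give mean ± SD of 3, and every panel spans 1 log2 unit. ETX hearts lie above PBS hearts for Decr2 and below them for Ech1, Echs1, Acsl5, Acads and Acadm.

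Electron transfer showed no called gene. Etfa and Etfb, the subunits of the flavoprotein, differed by 0.012 (-0.14 to 0.17) and -0.072 (-0.23 to 0.088). Etfdh, which hands their electrons to ubiquinone, was at 11.20, 11.20 and 11.34 in ETX hearts, against 11.32, 11.32 and 11.49 in PBS hearts. ETX replicate 10 lay inside the PBS range, and the difference was -0.13 (-0.31 to 0.053). It was -0.071 without PBS replicate 12, -0.24 without PBS replicates 3 and 9 and -0.22 with the lung score.

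Among the peroxisomal enzymes, Ehhadh, the bifunctional enzyme whose induction by PPAR-alpha ligands is classic in rodent liver, was at 5.42, 5.34 and 5.35 in ETX hearts, against 5.29, 5.17 and 5.30 in PBS hearts. The ETX hearts were all higher by a small margin, and the difference of 0.11 (-0.045 to 0.27) did not pass (limma adjusted p = 0.385) and was 0.069 without PBS replicate 9, 0.064 without PBS replicates 3 and 9 and 0.049 with the lung score. Hsd17b4, the second bifunctional enzyme, and the thiolase Acaa1a differed by -0.035 and 0.013. By organelle, the 18 purely mitochondrial members split into 9 below 0 and 9 above (median -0.00019). Of these, 0 were called in limma, and 3 were lower at an unadjusted p under 0.05, against 13.1% of all genes. The 5 purely peroxisomal ones split into 2 below and 3 above (median 0.013, 1 called higher, Decr2). The 3 placed in both split into 2 below and 1 above (median -0.13, 1 called lower, Ech1). The remaining 6, on other membranes or in the cytosol and with Acsl5 among them, split into 3 below and 3 above (median 0.0030). Of those 6, 0 were called and 1 was lower unadjusted. Over all genes tested, 2.43% were called lower and 1.14% higher.

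Malonyl-CoA blocks the carnitine gate into mitochondria; Acacb makes it and Mlycd removes it. Acacb was at 8.21, 8.04 and 8.05 in ETX hearts, against 8.16, 8.15 and 8.11 in PBS hearts. Mlycd was at 6.95, 6.83 and 6.82 in ETX hearts, against 6.91, 6.75 and 6.71 in PBS hearts. Both overlapped between groups, with differences of -0.040 (-0.21 to 0.13) and 0.074 (-0.10 to 0.25).

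The thioesterases split acyl-CoA back into fatty acid and coenzyme A, and Acot1, Acot2 and Acot13 overlapped between the groups. Acot1, the cytosolic form, was at 6.61, 6.63 and 6.74 in ETX hearts, against 6.61, 6.48 and 6.75 in PBS hearts. Acot2, its mitochondrial close copy and neighbour, was at 11.89, 11.92 and 12.32 in ETX hearts, against 11.98, 11.96 and 12.12 in PBS hearts. For Acot2, ETX replicate 10 stood apart as the highest of all 6 hearts. The intervals of the difference ran from -0.15 to 0.24 for Acot1 and from -0.25 to 0.30 for Acot2. Since these are paralogs, probes may read more than 1 of them. Acot13 differed by -0.0023 (-0.18 to 0.18). Acot3, a further paralog outside the chosen set, named after its values were seen, was at 5.08, 5.03 and 5.17 in ETX hearts, against 4.82, 4.80 and 4.80 in PBS hearts. All ETX hearts were higher, and the difference of 0.29 (0.14 to 0.44) did not pass (limma adjusted p = 0.0553). Acadsb and Phyh, also outside the set and named after their values were seen, came as near in the other direction. Their ETX hearts were all lower, with differences of -0.32 and -0.35 (limma adjusted p = 0.0517 and 0.0567).

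Vnn1, which frees pantothenate for new coenzyme A, was at 3.10, 3.49 and 3.28 in ETX hearts, against 3.59, 4.04 and 3.36 in PBS hearts. These are dim values: the ETX mean of 3.29 lay under the filter level of 3.45, and the gene passed the filter through the PBS mean of 3.66. Among PBS hearts its level followed the order of the lung markers, highest in replicate 9 and lowest in replicate 12. Among ETX hearts it ran from 3.10 to 3.49, where the lung sum was 125 to 132. A part of lung tissue in this signal was not tested. No fold or test is given for Vnn1, and it adds 1 to the members below 0.

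The hearts of one group differed among themselves in a way many members shared. ETX replicate 7 was the lowest of the 6 hearts for 15 of the 32 members, and for 11 of the 18 mitochondrial ones, against 17.7% of all genes tested. ETX replicate 10 was the highest for 10 of 32, against 15.4% of all genes. ETX replicate 7 lay below ETX replicate 10 for 23 of the 32, against 52.9% of all genes. The members' SD among ETX hearts had a median of 0.0863, against 0.0688 among PBS hearts; over all genes tested these medians were 0.087 and 0.0955. Leaving out ETX replicate 10 moved the median difference of the 32 to -0.050, and leaving out ETX replicate 7 to 0.014.

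**Figure D3:**
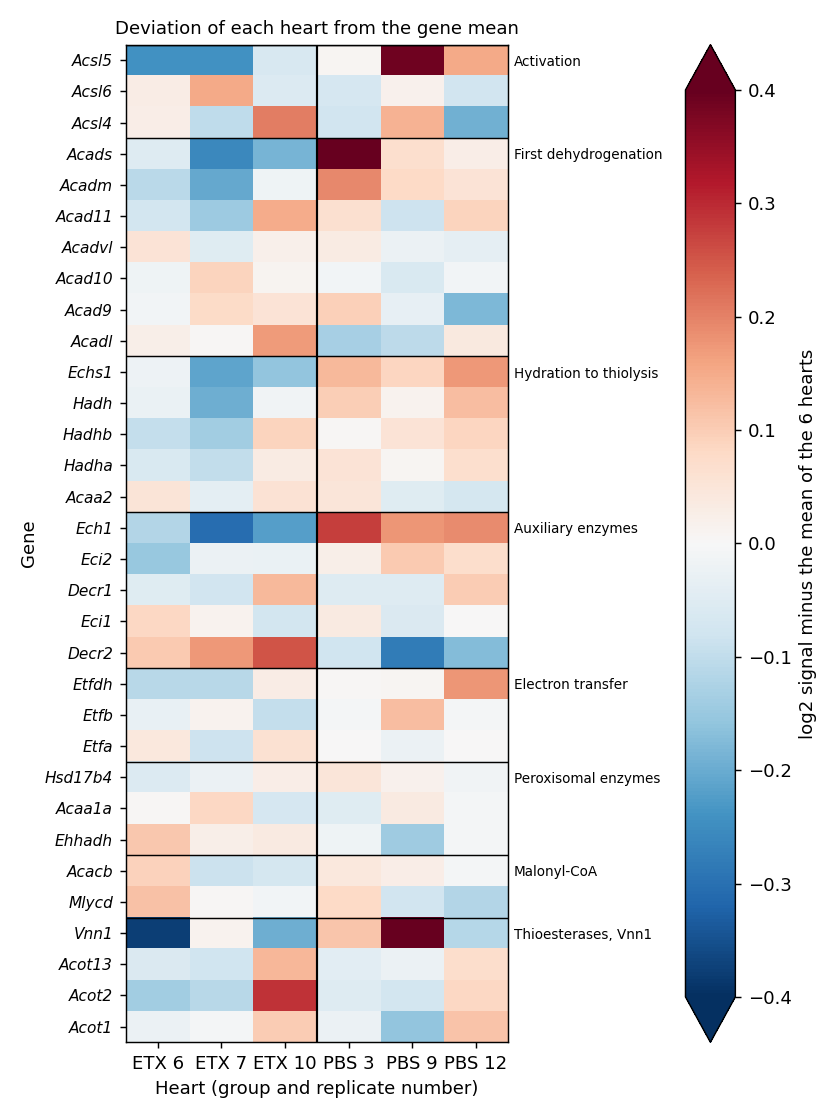
Log2 signal of each heart minus the mean of the 6 hearts, for the 32 genes by enzyme step, red above and blue below the mean (colours stop at 0.4). ETX 7 is the lowest heart for 15 genes, among them Hadha, Hadhb, Hadh and Echs1, and ETX 10 the highest for 10.

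In the genes around the pathway few calls were made. Of the carnitine shuttle, 7 of 8 genes were tested, 6 of them below 0 (median -0.068), with 0 called in limma and 1 lower at an unadjusted p under 0.05. Of 37 further acyl-CoA enzymes 32 were tested, 17 below 0, again with 0 called (4 lower and 2 higher at an unadjusted p under 0.05). The 17 tested peroxisome genes had a median of -0.013, with 0 called and 0 at an unadjusted p under 0.05. Of the 7 tested genes of coenzyme A synthesis 0 were called (2 lower and 1 higher unadjusted).

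Of 15 tested nuclear receptors and coactivators 10 lay below 0 (median -0.057), 4 lower and 2 higher at an unadjusted p under 0.05, and 0 were called lower in limma. The 1 called higher was Esrrb, an oestrogen-related receptor. It was at 5.45, 5.34 and 5.31 in ETX hearts, against 4.97, 4.89 and 4.84 in PBS hearts. The groups were well apart, 1.38-fold higher in ETX (limma adjusted p = 0.021), and the call held in 2 of the 6 fits without 1 heart. It was lost without PBS replicates 3 and 9, without moderation and with the lung, atrial or hepatocyte score as a covariate (adjusted p of 0.0501 to 0.115). Ppara itself is in that list and was not called. Of 5 tested genes of flavin and flavoprotein supply 4 lay above 0 (median 0.16). The 1 called, higher in ETX, was Etfbkmt, which methylates the Etfb protein. It was at 6.47, 6.29 and 6.44 in ETX hearts, against 5.96, 5.61 and 5.89 in PBS hearts. All ETX hearts were higher, by 1.5-fold on average (limma adjusted p = 0.0309). Its other cluster, dim at 2.35 in ETX and 2.28 in PBS, differed by 0.071, and with both clusters averaged the gene did not pass (0.0787). With 1 heart left out it kept the call in 1 of 6 fits, and it lost the call in the same 5 other fits as Esrrb (0.0657 to 0.153).

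**Figure D4:**
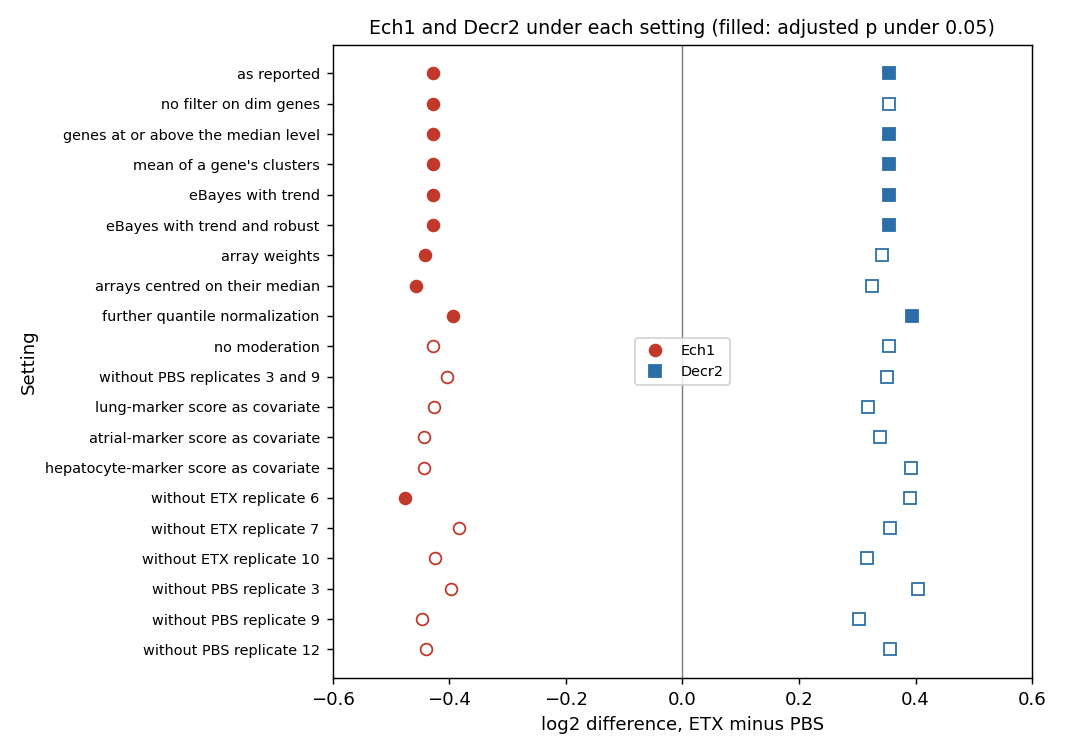
The log2 difference, ETX minus PBS, of Ech1 (circles) and Decr2 (squares) as reported and under 19 other settings; filled symbols passed an adjusted p of 0.05 in limma (or, for the fit without moderation, in the plain linear model). Ech1 stays between -0.48 and -0.38. Its call is present in 1 of the 6 fits without 1 heart and in 8 of the 13 other alternatives. Decr2 stays between 0.30 and 0.40, with its call present in 5 of the 19.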

How the data were processed

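The deposited values are log2 signals that the authors made with Affymetrix Expression Console and RMA, per the submitters' processing notes, which give no version. RMA corrects background, equalises the arrays' distributions of probe signals and summarises probes. The medians of the deposited arrays over all clusters still ran from 4.43 to 4.51. Differences of dim and of very bright transcripts can be compressed in such array values. Which annotation and filters were used is not stated in the labels. Of 35556 clusters, 21789 carried 1 gene symbol in the platform annotation, 1621 several and 12146 none. Genes were taken from clusters with 1 symbol, the brightest over all 6 arrays where a gene had several, and genes whose mean lay under the lower quartile (3.45) were left out. The comparison of ETX with PBS used limma 3.58.1 in R 4.3.3 (lmFit and eBayes, no covariates). Intervals are the 95% intervals of limma; folds are 2 to the power of the log2 difference. The test was tried on simulated data first. Alternatives were filters, eBayes options, array weights, normalizations, no moderation, marker scores as covariates and each heart left out; the hepatocyte score was added after seeing the data. The members, lists, tests and the rule for naming genes were chosen with earlier results of these data known. By that rule, values in every heart go to members with an unadjusted p under 0.05, to a set picked by role and, in the surrounding lists, to called genes; Hadh, Eci2, Decr1 and Etfdh were added after their values were seen. Promoters are from RefSeq, GRCm38.p6. Python 3.11.15 with matplotlib 3.10.9 drew the figures.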

Additional observations from a re-analysis of the deposited data

How the results depend on the processing

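The called members, 1 lower and 1 higher in ETX, came to 2 lower with an intensity trend in eBayes, with or without a robust prior, where Echs1 joined Ech1. The higher call, Decr2, was lost (0) without the filter on dim genes, with array weights (limma adjusted p = 0.0513) and with arrays centred on their median. Both were lost (0 and 0) without moderation, without PBS replicates 3 and 9, and with the lung, atrial or hepatocyte score in the fit, each of which also leaves fewer degrees of freedom. With 1 heart left out, 0 to 1 were called lower and 0 higher. Over all genes, 363 lower and 170 higher calls became 629 and 280 among genes at or above the median level, 602 and 268 with a trend, and 663 and 294 with a robust trend. They became 0 and 0 without moderation, 14 and 5 without PBS replicates 3 and 9, 55 and 14 with the lung score, 97 and 39 with the atrial score and 61 and 27 with the hepatocyte score. With 1 heart left out they ran from 64 to 179 lower and from 30 to 62 higher. The median difference of the members was -0.050 without PBS replicates 3 and 9 and ran from -0.050 to 0.014 with 1 heart left out. Of members without overlap, the 7 lower became 5 after further quantile normalization. The 2 higher became 1 with arrays centred on their median. Where no cause is named, the cause was not tested. The adjusted p ran from 0.00472 to 0.164 for Ech1 and from 0.0235 to 0.202 for Decr2 over the 19 alternatives. No paired analysis was possible because the groups share no replicate number. The arrays carry no detection call, so levels near the low end, such as Vnn1 and Acsl6, give no reliable fold.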
